A study of Mus musculus with 6 samples.

Results

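Hepatic stellate cells and the cells around vessels were followed here through 9 genes, Reln, Lrat, Ecm1, Hgf, Pdgfra, Pdgfrb, Rgs5, Des and Acta2, whose rows were taken by symbol from a raw count table of 20140 genes. All 9 rows were found and all 9 passed the filter on low counts. Together they held 0.0229% to 0.0291% of the counts of a liver. The data are bulk RNA from 6 mouse livers on day 21, with 2 biological replicates in each of 3 groups. Sham livers came from mice given PBS, and both tumor groups from mice given CT26, a colon carcinoma cell line of BALB/c origin. The labels name the tumor groups only intra-C and intra-S. The study describes tumors placed in the cecum (premetastatic niche, PMN) and CT26 cells injected into the spleen (metastasis). Intra-C and intra-S were read as these models. The study's figure legends name BALB/c for both colorectal models, its methods give mice of 6 to 10 weeks, and the labels do not give the strain of each liver. The route of injection and the tumor group changed together, so their effects cannot be told apart.

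Stellate cells lie between hepatocytes and the sinusoidal endothelium and store vitamin A as retinyl esters. After injury they can turn into myofibroblasts, which contract, divide in response to platelet-derived growth factor (PDGF) and deposit matrix. They are also a source of hepatocyte growth factor (HGF), which acts on the receptor Met of hepatocytes. In a bulk liver, fewer cells of a type and less RNA per cell cannot be told apart, and several of the 9 genes are also made by other cells of the liver.

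The libraries held 32838321 to 43368309 counts, and 3 counts, the most that a count of 0 allows, stood for 0.0679 to 0.0928 CPM, the unit of normalized counts used below. The 2 intra-S livers differed most from each other: 285 genes differed by over 4-fold between them, against 39 within the intra-C and 19 within the sham group. Values without one or the other are given below. Markers of other cells also moved with the tumor groups. By edgeR's quasi-likelihood test 9 of 9 neutrophil markers were higher in both tumor groups than in sham, as were 7 and 6 of 7 Kupffer cell markers, 2 and 3 of 8 sinusoidal endothelial markers and 5 and 3 of 7 vascular and lymphatic endothelial markers in intra-C and intra-S livers. Of 10 hepatocyte markers 1 was lower in each tumor group. All 8 sinusoidal markers were higher in both tumor groups without intra-S replicate 1, and then 4 hepatocyte markers were higher and 3 lower in intra-C and 1 higher and 3 lower in intra-S livers. Without replicate 2, 8 and 6 of the sinusoidal markers were higher. Summed over their lists, neutrophil markers went from 3.47 to 4.50 CPM in sham to 267 to 578 CPM in intra-C and 397 to 1009 CPM in intra-S livers, Kupffer cell markers from 161 to 167 CPM to 804 to 1009 CPM and 461 to 924 CPM, and vascular and lymphatic endothelial markers from 39.95 to 42.5 CPM to 123 to 162 CPM and 97.7 to 164 CPM. Hepatocyte markers, which define the labelled tissue, were present in every library. The part of these cells in the results below was not tested.

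The 9 genes differed widely in level. On the TPM scale, which is per length of transcript and was calculated by the authors, Ecm1 was highest in sham livers at 119 ± 2.92 TPM (SD, n = 2). Rgs5 followed at 18.5 ± 0.168 TPM, then Reln at 10.4 and 9.65 TPM in the 2 livers and Lrat at 9.66 ± 1.18 TPM, and the last pair did not differ beyond their spread. Hgf was at 2.31 ± 0.116 TPM and Des at 1.91 ± 0.289 TPM. Pdgfra at 1.20 ± 0.153 TPM and Pdgfrb at 1.10 ± 0.185 TPM could not be ordered within their spread. Acta2 came last at 0.209 ± 0.212 TPM. Ecm1 and Rgs5 kept the first and second place, and Pdgfrb and Acta2 the eighth and ninth, in the means of both tumor groups, while Hgf moved from the fifth place in sham to the third in intra-C and the fourth in intra-S livers. Stellate markers were thus present in every library, with 493 to 1211 counts of Lrat and 1124 to 2480 counts of Reln, whereas Acta2, the usual marker of myofibroblasts, had 3 to 38 counts.

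**Figure D1:**
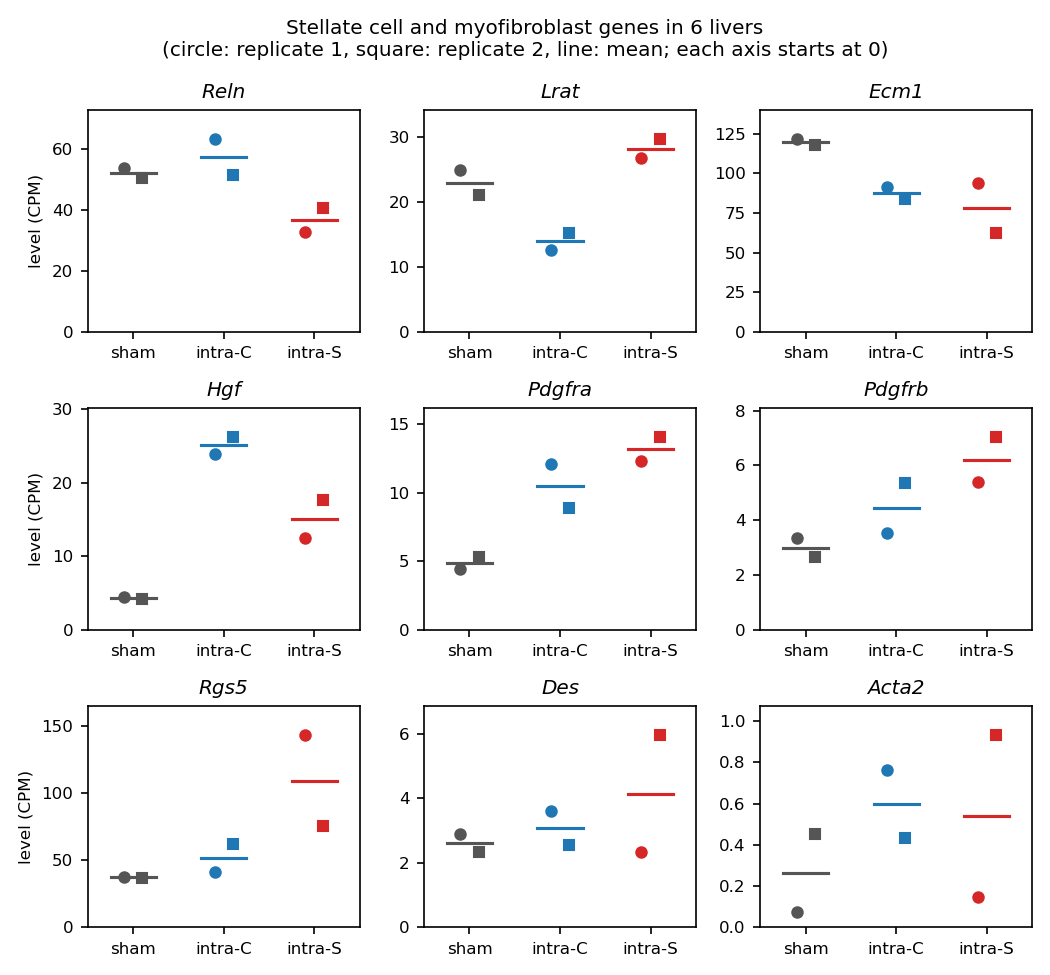
Level in CPM (normalized counts, TMM library sizes) of the 9 genes in each of the 6 livers, by group, with a circle for replicate 1, a square for replicate 2 and a line for the mean. Hgf is above 12 CPM in all 4 tumor livers and under 4.5 CPM in both sham livers, Lrat is lowest in the intra-C livers, and Acta2 stays under 1 CPM throughout.

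In intra-C livers 1 of the 9 genes, Hgf, was called higher than in sham at an adjusted p under 0.05 (edgeR), and none lower. Over all 16370 genes tested, 7.30% were called in either direction, 4.92% higher and 2.38% lower. In intra-S livers 3 of 9, Hgf, Pdgfra and Rgs5, were called higher than in sham and none lower, against 10.7% of all genes in either direction, 6.78% higher and 3.95% lower. Before adjustment, 3 of the 9 had a p under 0.05 in intra-C and 5 in intra-S livers, against 27.0% and 30.2% of all genes. Between intra-S and intra-C livers none of the 9 and none of all genes (0%) passed the adjusted threshold in edgeR. At an unadjusted p under 0.05, 4 of the 9 differed there, against 13.4% of all genes, and DESeq2 called 1 of the 9, Lrat, and 506 of all genes. In CPM the livers of the groups did not overlap for 6 genes between intra-C and sham, 7 between intra-S and sham and 6 between intra-S and intra-C. The same held for 68.4%, 60.4% and 43.3% of all genes, so that lack of overlap alone was common. The median log2 fold change of the 9 genes was 0.47 in intra-C and 1.03 in intra-S livers against sham, beside 0.01 and 0.04 over all genes. The intra-S median was the value of Acta2 itself, and it was 0.22 without intra-S replicate 2 and 1.20 without replicate 1. On the log2(TPM + 1) and log2(TPM + 0.1) scales the medians were 0.21 and 0.25 in intra-C and 0.19 and 0.46 in intra-S livers. Over all genes the medians on these scales were -0.098 and -0.17 in intra-C and -0.15 and -0.26 in intra-S livers. With library size in place of TMM the intra-C median was 0.22, beside -0.25 over all genes. It was 0.71 and 0.30 without intra-C replicate 1 or 2. Both tumor groups were set against the same sham livers. With either sham liver left out, 0 genes of the table were called in intra-C and 0 in intra-S livers, so no call against sham held there. Without intra-C replicate 1 or 2 the calls over all genes were 65 and 61 in intra-C and 543 and 492 in intra-S livers. Far more genes passed without intra-S replicate 1 or 2, 26.5% and 26.3% of those tested in intra-C against 7.30%, and 16.5% and 32.7% in intra-S livers against 10.7%. The counts of calls in the gene lists below moved with these fits in both tumor groups. A lower count in intra-C than in intra-S livers was therefore not read as a difference between the groups.

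**Figure D2:**
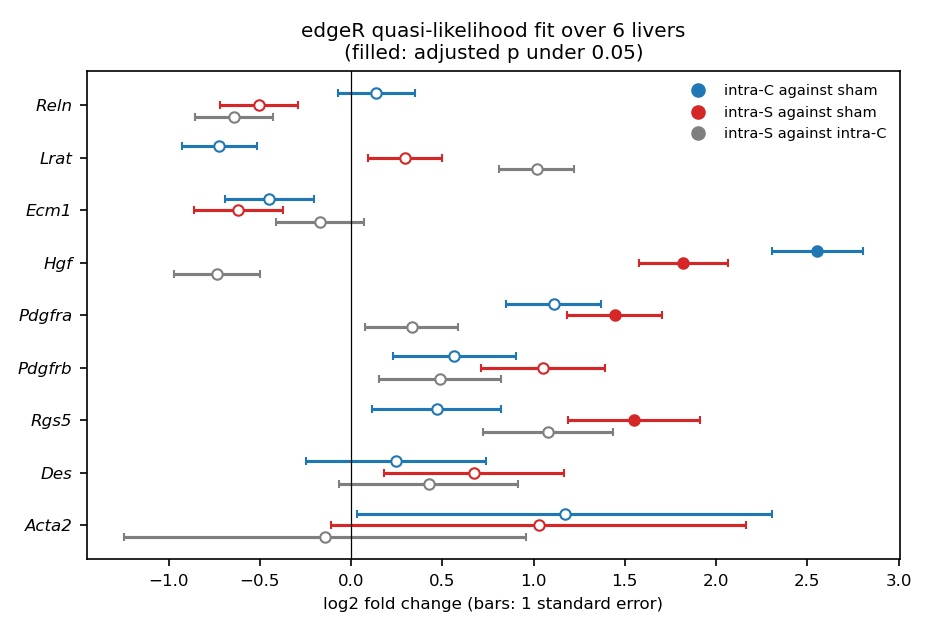
Log2 fold change of the 9 genes in the 3 comparisons (horizontal axis, bars of 1 standard error, edgeR fit over 6 livers), filled where the adjusted p is under 0.05. The filled points are Hgf in both tumor groups against sham, and Pdgfra and Rgs5 in intra-S against sham, and the widest bars are those of Acta2.

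To show the sequence next to the genes that rose together in intra-S livers, the 250 bases upstream of the start of Hgf, Pdgfra and Rgs5 are given, with that of Lrat, the storage enzyme, beside them. They are RefSeq sequences on GRCm38.p6, written 5′ to 3′ on the strand of the gene, and capitals mark the motifs described after them. The windows are chr5:16553245-16553494 (plus strand, upstream of Hgf), chr5:75152001-75152250 (plus, Pdgfra), chr1:169655251-169655500 (plus, Rgs5) and chr3:82903975-82904224 (minus, Lrat), and none overlaps an annotated exon. The Pdgfra window precedes a start that lies inside the span of the gene.
Hgf: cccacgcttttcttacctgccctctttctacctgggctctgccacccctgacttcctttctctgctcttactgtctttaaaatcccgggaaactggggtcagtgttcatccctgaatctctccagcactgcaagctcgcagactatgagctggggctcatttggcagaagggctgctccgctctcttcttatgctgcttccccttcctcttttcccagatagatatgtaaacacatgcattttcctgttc
Pdgfra: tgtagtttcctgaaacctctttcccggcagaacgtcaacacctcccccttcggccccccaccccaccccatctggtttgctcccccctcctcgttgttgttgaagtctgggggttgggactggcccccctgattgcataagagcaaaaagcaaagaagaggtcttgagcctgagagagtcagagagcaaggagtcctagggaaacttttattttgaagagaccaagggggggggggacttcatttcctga
Rgs5: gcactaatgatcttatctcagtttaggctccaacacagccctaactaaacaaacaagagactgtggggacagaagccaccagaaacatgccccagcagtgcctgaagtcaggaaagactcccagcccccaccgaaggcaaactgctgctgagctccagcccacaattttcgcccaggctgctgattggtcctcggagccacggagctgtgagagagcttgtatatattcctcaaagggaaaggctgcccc
Lrat: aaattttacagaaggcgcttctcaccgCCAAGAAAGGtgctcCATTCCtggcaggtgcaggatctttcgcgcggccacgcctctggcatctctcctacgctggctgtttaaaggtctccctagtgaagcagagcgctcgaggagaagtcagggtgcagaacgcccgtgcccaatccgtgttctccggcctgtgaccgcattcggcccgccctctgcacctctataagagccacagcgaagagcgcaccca
These windows were searched on both strands for the CArG box of serum response factor with at most 1 mismatch, CATTCC of TEAD factors, TGANTCA of AP-1 and TTCNNNGAA of STAT factors. RefSeq windows were at hand for 8 of the 9 genes, 9 windows in all since Hgf has 2 starts. Hgf, Pdgfra and Rgs5 held 0 matches to any of the 4. Lrat held a CArG match at -223 and CATTCC at -208 from its start, and Ecm1 a CArG match at -220 and TGANTCA at -64. Acta2 held CArG matches at -84 and -34 and CATTCC at -146, and its window, which overlaps an annotated exon, is not printed. The CArG match was found in 3 of the 9 windows and in 18.6% of 32851 windows of all genes, CATTCC in 2 and 12.6%, TGANTCA in 1 and 6.75%, and TTCNNNGAA in 0 and 7.02%. A match is a string of letters and no site.

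The genes stand at chr5:21884454-22344705 (Reln, minus strand), chr3:82892582-82903974 (Lrat, minus), chr3:95734147-95739876 (Ecm1, minus), chr5:16553495-16619439 (Hgf, plus), chr5:75151322-75198206 (Pdgfra, plus), chr18:61045127-61085067 (Pdgfrb, plus), chr1:169655501-169695813 (Rgs5, plus), chr1:75360292-75368579 (Des, plus) and chr19:34240336-34255585 (Acta2, minus). Reads over exons were counted, and strand use is not given in the sources used here. Hgf shared 6.74% of its exonic bases with another gene model, Pdgfra 6.504%, Des 5.86%, Ecm1 2.499% and Reln 1.04%, and the other 4 none, so reads there could not be assigned with certainty.

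Among the genes of the quiescent, vitamin A storing cell, Reln encodes reelin, a secreted glycoprotein that marks stellate cells in the liver. Its level was 53.8 and 50.3 CPM in sham, 63.1 and 51.4 CPM in intra-C, and 32.8 and 40.6 CPM in intra-S livers. Both intra-S livers lay below the other 4, and the sham and intra-C livers overlapped. The log2 fold change against sham was -0.50 (SE 0.21, edgeR adjusted p = 0.169) in intra-S and 0.14 (SE 0.21, adjusted p = 0.719) in intra-C livers, and intra-S differed from intra-C by -0.64 (SE 0.21, adjusted p = 0.322), so no comparison passed. Without intra-S replicate 2 the values of intra-S were -0.67 against sham (edgeR adjusted p = 0.036) and -0.81 against intra-C (adjusted p = 0.0326), which passed. The sign of the intra-C value turned with library size in place of TMM (-0.13) and on the TPM scale (-0.05 and -0.06).

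Reelin acts through the receptors Vldlr and Lrp8 and the adaptor Dab1. Of the 8 tested genes of this list, Dab1 passed the test and was higher in both tumor groups, and the others did not pass in the fit over 6 livers. In intra-C livers 4 were higher and 2 lower without intra-S replicate 1 or 2, and without replicate 2, 4 were higher in intra-S livers. Dab1 was at 0.394 and 0.475 CPM in sham, 2.93 and 2.85 CPM in intra-C, and 1.46 and 2.38 CPM in intra-S livers. All 4 tumor livers lay above the sham livers, with log2 fold changes of 2.72 (SE 0.45, edgeR adjusted p = 0.0247) and 2.13 (SE 0.45, adjusted p = 0.0344). The calls were kept in 12 and 8 of 16 other settings.

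Lrat encodes lecithin retinol acyltransferase, the enzyme that esterifies retinol for storage. Its level was 24.95 and 21.02 CPM in sham, 12.7 and 15.2 CPM in intra-C, and 26.7 and 29.7 CPM in intra-S livers. On this scale the 3 groups did not overlap, with intra-C lowest and intra-S highest. On the TPM scale intra-C was again lowest, but the intra-S livers, at 8.84 and 10.52 TPM, overlapped with the sham livers, at 10.5 and 8.82 TPM. Lrat in intra-C differed from sham by -0.72 (SE 0.20, edgeR adjusted p = 0.0841), in intra-S from sham by 0.30 (SE 0.20, adjusted p = 0.37) and in intra-S from intra-C by 1.02 (SE 0.20, adjusted p = 0.285), the last being the smallest unadjusted p of the 9 genes in that comparison (0.00201). None passed over all genes. The intra-S value against sham was 0.027 with library size in place of TMM and 0.0020 and 0.0022 on the log2 TPM scales. The intra-C value passed without either intra-S replicate (-0.72 in both, adjusted p = 0.02 and 0.0205) and with DESeq2 (-0.73, adjusted p = 0.0425), and intra-S passed against intra-C without intra-S replicate 2 (0.94, adjusted p = 0.0215) and with DESeq2 (1.01, adjusted p = 0.0115). The ratio of Lrat to Reln on the TPM scale was 1.01 and 0.915 in sham, 0.438 and 0.649 in intra-C, and 1.78 and 1.60 in intra-S livers, again with no overlap between the groups. Both genes are used as markers of the same cell, and these 2 rows did not move together.

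Of the 17 genes of retinoid storage and signaling read here, 0 rose and 1 fell in intra-C and 1 rose and 3 fell in intra-S livers. Their median log2 fold change was -0.32 in intra-C and 0.16 in intra-S livers. The counts without intra-S replicate 1 were 3 higher and 4 lower of 18 in intra-C and 2 and 4 in intra-S livers, and without replicate 2 they were 1 and 5 and then 4 and 3 of 17. Dhrs3, a reductase that turns retinaldehyde back into retinol, fell in both groups by 1.38 and 1.40 on the log2 scale (SE 0.28 in each, edgeR adjusted p = 0.0383 and 0.0307), from 94.6 and 106 CPM in sham to 33.9 and 43.2 CPM in intra-C and 29.5 and 46.5 CPM in intra-S livers. Rdh10 and Aldh1a1, the enzymes of the 2 oxidation steps from retinol to retinoic acid, fell in intra-S livers, with log2 fold changes of -1.17 (SE 0.22, adjusted p = 0.0275) and -3.41 (SE 0.63, adjusted p = 0.0253). Their values in intra-C livers were -0.68 and -1.24, which did not pass, and each intra-S call was kept in 11 of 16 other settings. Aldh1a1 was at 565 and 390 CPM in sham and 19.8 and 69.8 CPM in intra-S livers. Without intra-S replicate 1 its value was -2.77. Aldh1a3, another enzyme of the last step, had 0 counts in both sham livers, 0.764 and 0.588 CPM in intra-C and 0.204 and 0.956 CPM in intra-S livers. It passed in intra-S (edgeR adjusted p = 0.0474) and fell just outside the threshold in intra-C livers (adjusted p = 0.0529), and the tumor groups overlapped. The hepatocyte also expresses several of these genes, and the rows do not separate the cells.

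**Figure D3:**
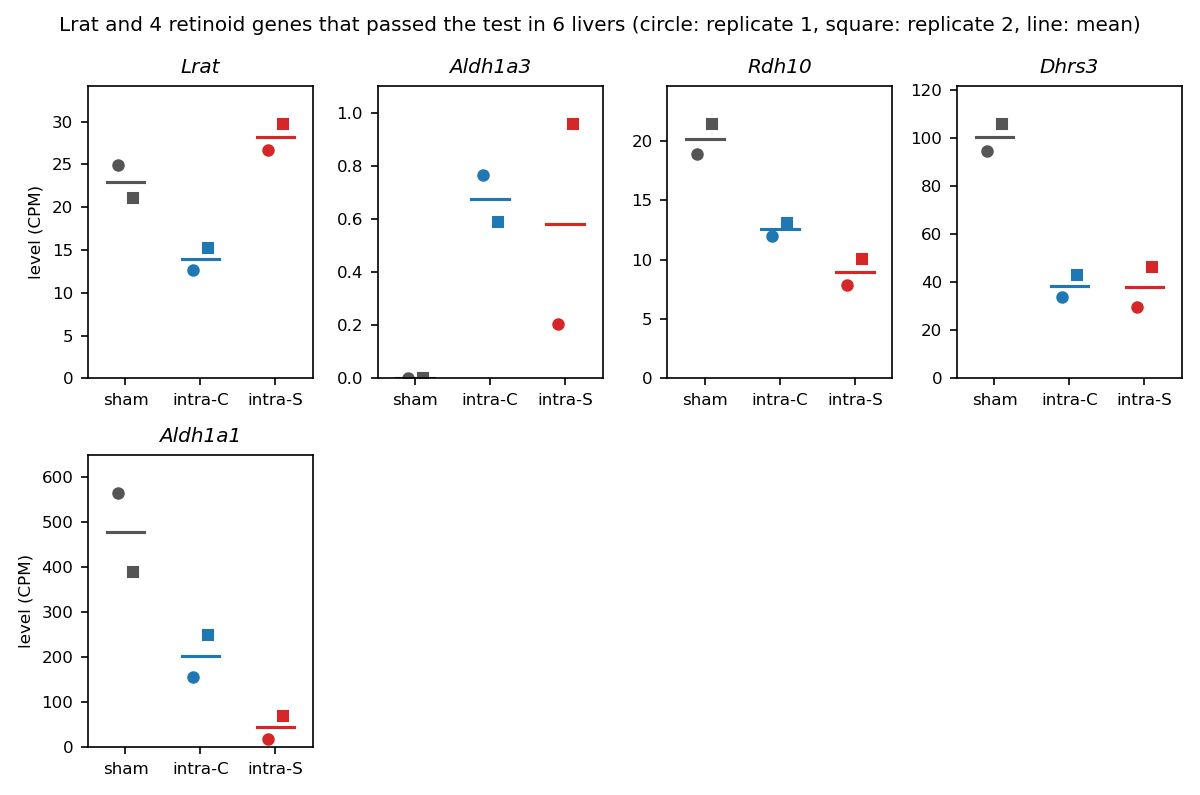
Level in CPM of Lrat and of the 4 genes of the retinoid list that passed the test in either tumor group, in each liver (circle, replicate 1; square, replicate 2; line, mean). Lrat is the one panel where, on this scale, the intra-C and intra-S livers lie on opposite sides of the sham livers. Dhrs3, Rdh10 and Aldh1a1 are lower in all 4 tumor livers than in both sham livers.

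Ecm1 encodes extracellular matrix protein 1, a secreted glycoprotein that keeps latent TGF-beta in its inactive form in the liver. Its level was 122 and 118 CPM in sham, 91.5 and 84.1 CPM in intra-C, and 93.7 and 62.5 CPM in intra-S livers. All 4 tumor livers lay below both sham livers, by -0.45 (SE 0.24, edgeR adjusted p = 0.29) and -0.62 (SE 0.24, adjusted p = 0.148), neither of which passed. The intra-C value passed without intra-S replicate 1 or 2 (-0.44 and -0.45, adjusted p = 0.042 and 0.0436), and the intra-S value passed without intra-S replicate 1 (-0.93, adjusted p = 0.0101), with library size in place of TMM (-0.91, adjusted p = 0.0464) and on the TPM scale with limma (-0.93 and -0.94, adjusted p = 0.0391 and 0.0378). In the list of TGF-beta signaling, 4 of 24 tested genes rose in intra-C and 6 in intra-S livers and none fell. In each tumor group 7 were higher and 1 lower without intra-S replicate 1, and without replicate 2, 8 and 11 were higher and 1 lower. Thbs1, thrombospondin 1, which can activate latent TGF-beta, went from 0.148 and 0.588 CPM in sham to 5.04 and 6.49 CPM in intra-C and 24.8 and 12.0 CPM in intra-S livers. Its log2 fold changes were 3.94 (SE 0.65, edgeR adjusted p = 0.0245) and 5.62 (SE 0.68, adjusted p = 0.00936), the latter 5.01 without intra-S replicate 1 (adjusted p = 0.00174). Skil, an inhibitor of Smad proteins that TGF-beta itself induces, rose by 2.99 and 2.57 (SE 0.47 in each, adjusted p = 0.0219 and 0.0243). Lrrc32 and Ltbp1, which hold latent TGF-beta on the cell surface and in the matrix, rose in intra-S livers by 2.22 (SE 0.53, adjusted p = 0.0471) and 2.17 (SE 0.47, adjusted p = 0.037), and each call was kept in 7 of 16 other settings. Lrrc32 was at 2.59 and 1.24 CPM in sham, 2.85 and 3.65 CPM in intra-C, and 12.4 and 5.54 CPM in intra-S livers. Without intra-S replicate 1 its value was 1.54 and did not pass (edgeR adjusted p = 0.0625), while Ltbp1 at 2.54 and Skil at 1.98 passed (adjusted p = 0.00837 and 0.0126).

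Of 21 further stellate cell genes 2 were called in intra-C and 4 in intra-S livers. In intra-C livers Adamtsl2 rose and Angptl6 fell, in intra-S livers Dcn and Sod3 rose as well, and the median of the list was -0.10 and -0.12 beside 0.01 and 0.04 over all genes. Leaving out intra-S replicate 1 gave 3 higher and 4 lower in intra-C and 3 and 2 in intra-S livers, and without replicate 2 they were 3 and 4 and then 7 and 3. Adamtsl2, a glycoprotein of the microfibril matrix, rose by 1.77 and 2.55 (SE 0.31 in each, edgeR adjusted p = 0.0277 and 0.00937). Angptl6, a secreted angiopoietin-like protein, fell by 1.18 and 1.33 (SE 0.25 in each, adjusted p = 0.0438 and 0.0276).

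Hgf showed the largest change of the 9 genes against sham, in both tumor groups, in the fit over 6 livers. This ligand is made as an inactive precursor, cleaved outside the cell and bound by Met. Its level was 4.41 and 4.12 CPM (179 and 182 counts) in sham, 23.9 and 26.2 CPM in intra-C, and 12.5 and 17.7 CPM in intra-S livers. The 3 groups did not overlap, with intra-C highest and sham lowest. Hgf was 5.87-fold higher in intra-C than in sham (log2 2.55, SE 0.25, edgeR adjusted p = 0.00722) and 3.53-fold higher in intra-S than in sham (log2 1.82, SE 0.24, adjusted p = 0.0122). Intra-S differed from intra-C by -0.73 (SE 0.23, adjusted p = 0.316), which did not pass, except without intra-S replicate 2 (-1.01, adjusted p = 0.0154). When livers were left out the size stayed between 2.51 and 2.62 for intra-C and between 1.55 and 2.05 for intra-S livers. It was smaller on other scales, at 2.30 and 1.56 with library size in place of TMM. With limma it was 2.32 and 1.46 on log2(TPM + 0.1) and 1.96 and 1.19 on log2(TPM + 1). The call in intra-C was lost without sham replicate 1 or 2 (adjusted p = 0.121 and 0.119) and without intra-C replicate 1 or 2 (0.0562 and 0.0597), and that in intra-S without sham replicate 1 or 2 (0.127 and 0.128) and in the fit of only the 2 groups (1.84, adjusted p = 0.0507). When a liver is left out, its group has a single liver, which is assumed to vary like the others. The fit of only the 2 groups kept 2 livers in each group.

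Stellate cells share Hgf with the sinusoidal endothelium, whose markers summed to 105 and 118 CPM in sham, 264 and 291 CPM in intra-C, and 368 and 242 CPM in intra-S livers over 8 genes. This sum was above sham in all 4 tumor livers, as Hgf was, and its part in the Hgf result was not tested. In the study's single-cell data, from another tumor line, Hgf was among the angiogenesis genes reported as raised in endothelial cells of tumor-bearing mice. Of 12 tested genes of HGF activation and Met signaling 1 rose in intra-C and 2 in intra-S livers, and none fell. The median log2 fold change of this list was 0.38 in intra-C and -0.15 in intra-S livers. Leaving out either intra-S liver gave 4 higher and 1 lower in intra-C and 2 higher and 1 lower in intra-S livers. Cbl, the ubiquitin ligase that takes Met from the cell surface, rose in both, by 1.66 (SE 0.24, edgeR adjusted p = 0.0171) and 1.20 (SE 0.23, adjusted p = 0.0291). Its calls were kept in 12 and 8 of 16 other settings. Plau, urokinase, which can cleave the HGF precursor, was at 0.419 and 0.0905 CPM in sham and 1.46 and 4.63 CPM in intra-S livers, where it passed (log2 3.58, SE 0.87, adjusted p = 0.0496). It passed in 4 of 15 other settings, and not without intra-S replicate 2 (2.52, edgeR adjusted p = 0.0556). The receptor Met, named because it is the partner of Hgf and after its values were seen, was at 76.3 and 81.8 CPM in sham, 106 and 123 CPM in intra-C, and 40.8 and 80.9 CPM in intra-S livers, and did not pass (adjusted p = 0.349 and 0.483). The ratio of Hgf to Met on the TPM scale was 0.096 and 0.0836 in sham livers and lay between 0.354 and 0.508 in the 4 tumor livers.

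**Figure D4:**
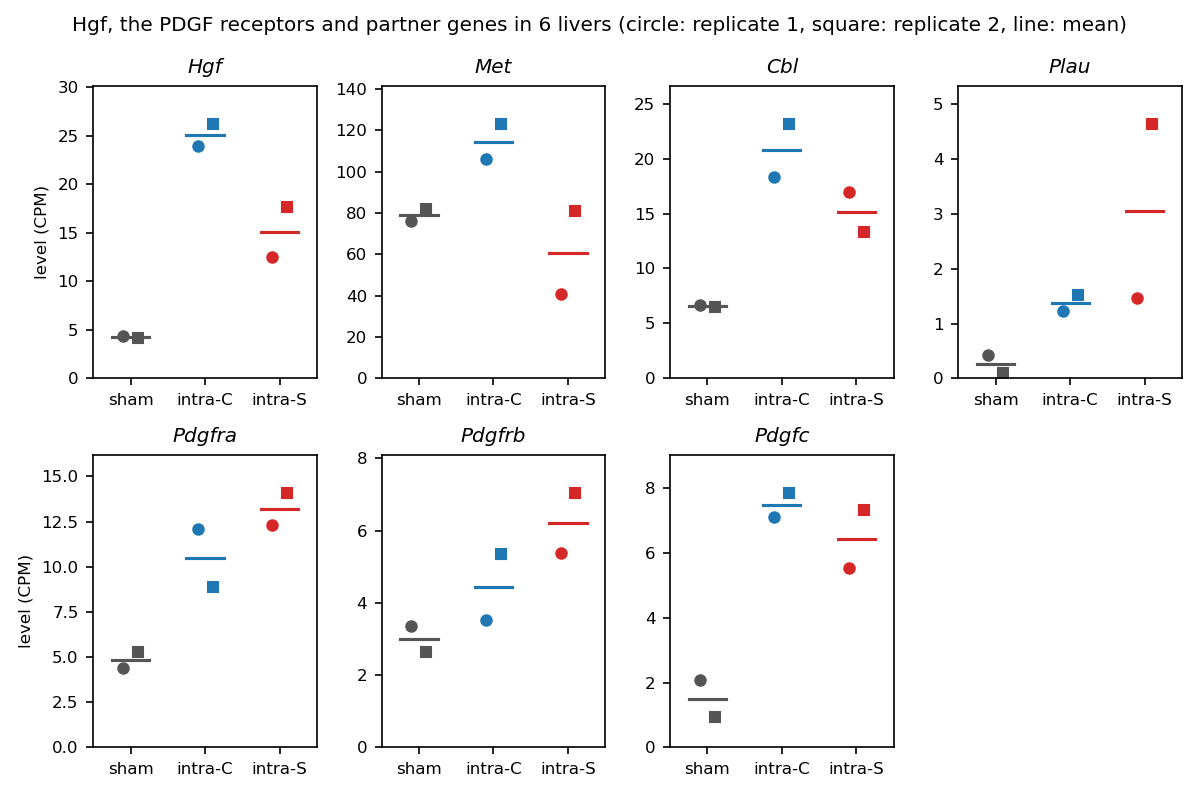
Level in CPM of Hgf, its receptor Met, Cbl and Plau, and of both PDGF receptors and the ligand Pdgfc, in each liver (circle, replicate 1; square, replicate 2; line, mean). All of them except Met are higher in each of the 4 tumor livers than in both sham livers.

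The PDGF receptors were less abundant than Hgf on the TPM scale, and the mean of both was lowest in sham livers. Pdgfra, which binds most PDGF ligands, was at 4.41 and 5.29 CPM in sham, 12.1 and 8.88 CPM in intra-C, and 12.3 and 14.1 CPM in intra-S livers. All 4 tumor livers lay above the sham livers, and the intra-S livers lay above the intra-C livers by little in CPM and overlapped with them on the TPM scale. Pdgfra was 2.72-fold higher in intra-S than in sham (log2 1.44, SE 0.26, edgeR adjusted p = 0.0243) and 2.16-fold higher in intra-C than in sham (log2 1.11, SE 0.26, adjusted p = 0.0545), the latter just outside the threshold. The difference between intra-S and intra-C was 0.33 with a 95% interval from -0.28 to 0.95. The call in intra-S was lost without sham replicate 1 or 2 (1.32 and 1.58, adjusted p = 0.203 and 0.167) and without intra-C replicate 1 or 2 (1.45 and 1.46, adjusted p = 0.0566 and 0.0553). The intra-C value passed without intra-S replicate 1 or 2 (1.12 in both, adjusted p = 0.0116 and 0.013) and with DESeq2 (1.10, adjusted p = 0.008). Nor did the intra-S value pass in the fit of only the 2 groups (1.46, edgeR adjusted p = 0.057). It did not pass either with limma on log2(TPM + 1) (0.73, adjusted p = 0.0603) or log2(TPM + 0.1) (1.09, adjusted p = 0.0638). On those 2 scales the median of all genes in intra-S against sham was -0.15 and -0.26.

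Pdgfrb, the receptor of PDGF-B and a marker of stellate cells and pericytes, was at 3.35 and 2.65 CPM in sham, 3.54 and 5.35 CPM in intra-C, and 5.39 and 7.04 CPM in intra-S livers. On this scale the 3 groups did not overlap, but on the TPM scale the lower intra-C liver, at 1.11 TPM, lay below the higher sham liver, at 1.23 TPM. Its log2 fold change was 0.57 (SE 0.34, edgeR adjusted p = 0.332) in intra-C and 1.05 (SE 0.34, adjusted p = 0.0955) in intra-S livers, and it passed under none of 16 other settings. Of 8 tested PDGF ligands and activators, Pdgfc rose in both tumor groups and Plau in intra-S livers. In intra-C livers 2 were higher when either intra-S liver was left out, and in intra-S livers 2 were higher without replicate 1 and 4 higher and 1 lower without replicate 2. Pdgfc, a ligand of Pdgfra that must be cleaved to act, was at 2.09 and 0.928 CPM in sham, 7.13 and 7.86 CPM in intra-C, and 5.54 and 7.33 CPM in intra-S livers. It rose by 2.31 (SE 0.43, edgeR adjusted p = 0.0329) and 2.09 (SE 0.43, adjusted p = 0.0331), so that a receptor and one of its ligands were both higher in intra-S livers.

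Rgs5 encodes a regulator of G protein signaling that is known from pericytes and smooth muscle of vessels. Its level was 37.6 and 37.2 CPM in sham, 41.1 and 62.5 CPM in intra-C, and 144 and 75.4 CPM in intra-S livers. In CPM the groups did not overlap, while on the TPM scale the lower intra-C liver, at 17.3 TPM, lay below both sham livers. Intra-S replicate 1 had 1.91 times the level of replicate 2. Rgs5 was 2.93-fold higher in intra-S than in sham (log2 1.55, SE 0.36, edgeR adjusted p = 0.045), and the intra-C value was 0.47 (SE 0.35, adjusted p = 0.442). Intra-S differed from intra-C by 1.08 (SE 0.36, adjusted p = 0.322), which passed without intra-S replicate 2 (1.47, adjusted p = 0.00889) and not without replicate 1 (0.54, adjusted p = 0.288). Without intra-S replicate 1 the value against sham was 1.02 and still passed (adjusted p = 0.0312). The call was lost without sham replicate 1 or 2 (1.56 and 1.54, adjusted p = 0.255 and 0.257) and without intra-C replicate 1 or 2 (1.55 and 1.56, adjusted p = 0.0831 and 0.0841). It was also lost with the replicate number as a block, with library size in place of TMM, on the TPM scale and in the fit of only the 2 groups (adjusted p = 0.063 to 0.082).

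Of 7 tested pericyte genes none passed in intra-C and 3 rose in intra-S livers. Leaving out intra-S replicate 1 gave 2 higher in each tumor group, and without replicate 2, 2 in intra-C and 5 in intra-S livers. Kcnj8 and Abcc9, the subunits of the potassium channel of pericytes, were highest in intra-S replicate 1, as Rgs5 was. Kcnj8 was at 2.98 and 5.996 CPM in sham, 3.72 and 6.09 CPM in intra-C, and 35.1 and 13.1 CPM in intra-S livers (log2 2.42, SE 0.58, edgeR adjusted p = 0.0475). Abcc9 was at 24.2 and 26.4 CPM in sham, 33.2 and 36.7 CPM in intra-C, and 91.9 and 46.0 CPM in intra-S livers (log2 1.44, SE 0.34, adjusted p = 0.0446). Mcam, an adhesion molecule of pericytes and endothelium, passed as well (log2 2.08, SE 0.39, adjusted p = 0.026). Without intra-S replicate 1, Abcc9 at 0.86 and Mcam at 1.52 passed (adjusted p = 0.0128 and 0.0152) and Kcnj8 at 1.55 did not (0.054). Of 16 other settings, Kcnj8 passed in 6, Abcc9 in 7 and Mcam in 11. The pericyte genes summed to 34.0 and 36.9 CPM in sham, 45.1 and 52.5 CPM in intra-C, and 191 and 70.9 CPM in intra-S livers. Among 7 tested genes of the R4 family of RGS proteins, to which Rgs5 belongs, 2 rose in intra-C and 3 in intra-S livers. Rgs1 and Rgs18, which are known from blood cells, and Rgs2 were those called in intra-S livers, at 5.21, 3.35 and 3.97 on the log2 scale (edgeR adjusted p = 0.0352, 0.0291 and 0.0145). Rgs1 was at 1.45 and 0.837 CPM in sham, 12.9 and 7.76 CPM in intra-C, and 77.02 and 7.77 CPM in intra-S livers. Rgs2 was at 1.77 and 2.04 CPM in sham, 11.6 and 10.02 CPM in intra-C, and 46.002 and 14.1 CPM in intra-S livers. Both were far higher in intra-S replicate 1 than in replicate 2, and Rgs1 in replicate 2 lay between the intra-C livers. Without intra-S replicate 1 the values of Rgs1, Rgs18 and Rgs2 were 2.77, 2.99 and 2.88 (edgeR adjusted p = 0.00567, 0.029 and 0.000661).

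**Figure D5:**
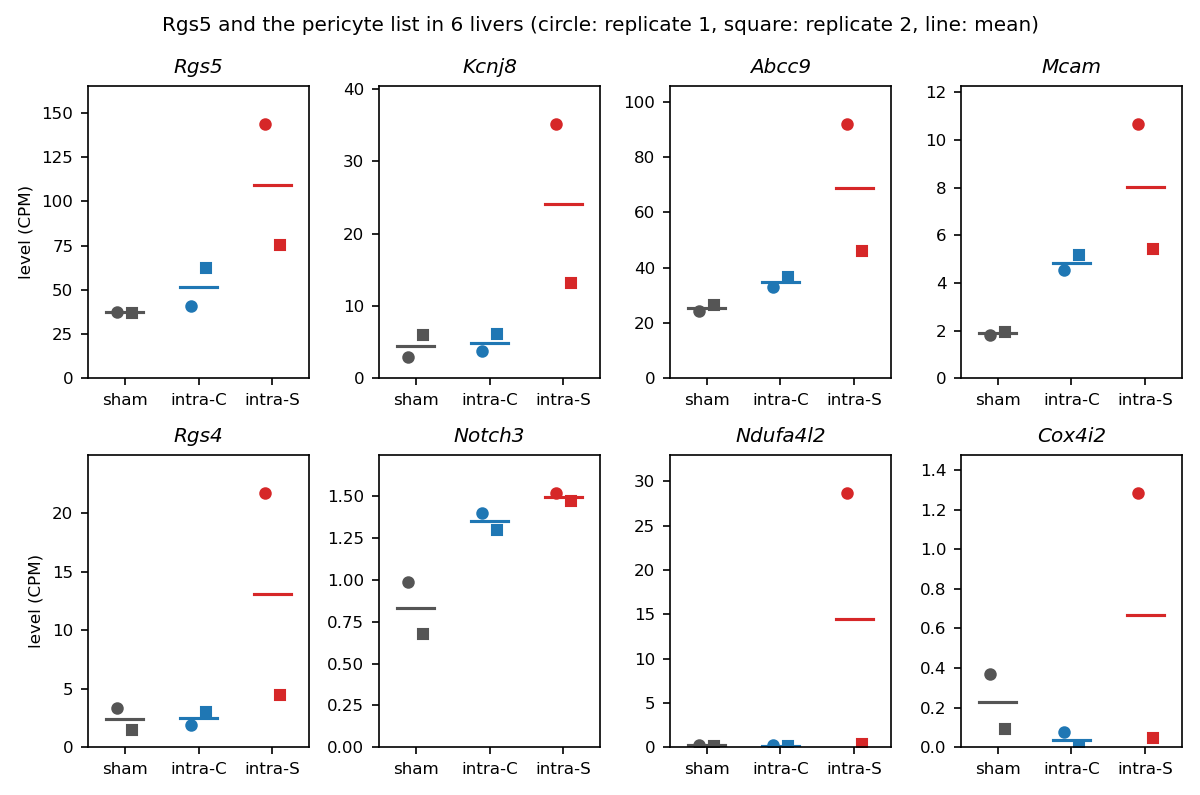
Level in CPM of Rgs5 and of the 7 pericyte genes tested, in each liver (circle, replicate 1; square, replicate 2; line, mean). Intra-S replicate 1 is the highest liver in every panel, and Ndufa4l2 and Cox4i2 are near 0 in the other intra-S liver.

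Des and Acta2, cytoskeletal genes of myofibroblasts, did not pass in any comparison. Des encodes desmin, an intermediate filament protein of stellate cells and muscle. Its level was 2.88 and 2.33 CPM in sham, 3.61 and 2.57 CPM in intra-C, and 2.33 and 5.96 CPM in intra-S livers. The groups overlapped, and intra-S replicate 2 alone stood above the other livers. The log2 fold changes against sham were 0.25 (SE 0.49, edgeR adjusted p = 0.785) and 0.67 (SE 0.49, adjusted p = 0.401). The intra-S value was -0.16 without intra-S replicate 2 and 1.20 without replicate 1, and the intra-C value turned to -0.02 without intra-C replicate 1 and with library size in place of TMM. Among 7 tested partners and related filaments Plec, plectin, passed in intra-C livers (log2 1.22, SE 0.22, edgeR adjusted p = 0.0317) and Vim, vimentin, in intra-S livers (log2 3.15, SE 0.57, adjusted p = 0.0241). Like Des, Vim was highest in intra-S replicate 2, with 152 CPM against 44.9 CPM in replicate 1 and 9.21 and 12.9 CPM in sham livers, and many cell types make it. Without intra-S replicate 1 its value was 3.78. The call of Plec was kept in 10 and that of Vim in 11 of 16 other settings. Of these partners 2 were higher in intra-C livers when either intra-S liver was left out, and 2 in intra-S livers without replicate 2.

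Acta2 encodes smooth muscle alpha-actin. It had 3 and 20 counts in sham, 30 and 14 in intra-C, and 5 and 38 in intra-S livers, with 95% Poisson intervals of 0.619 to 8.77 counts for the lowest liver and 26.9 to 52.2 for the highest, which cover counting error only. The groups overlapped, and the livers of the sham and intra-S groups differed by 6.12-fold and 6.39-fold within the group. The log2 fold changes were 1.17 (SE 1.14, edgeR adjusted p = 0.555) in intra-C and 1.03 (SE 1.13, adjusted p = 0.581) in intra-S livers, and without intra-S replicate 2 the latter was -0.85. The 95% intervals on the log2 scale ran from -1.56 to 3.90 in intra-C and from -1.70 to 3.75 in intra-S livers. They reached further up than down, so neither a fall nor a much larger rise could be excluded with these livers. In the gene models (GRCm38.p6), Acta2 shared 0 of its 2196 exonic bases with another gene, and 0 of 2096 windows of 100 bases of its transcripts occurred in the transcripts of another gene.

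The other contractile genes did not pass either: of 9 tested smooth muscle genes 0 passed in intra-C and 0 in intra-S livers, with a median log2 fold change of 0.72 and 0.48. Cald1, caldesmon, the most abundant of them, was at 118 and 133 CPM in sham, 209 and 203 CPM in intra-C, and 135 and 213 CPM in intra-S livers (edgeR adjusted p = 0.144 and 0.274). Tagln, Actg2, Lmod1 and Myocd were not analysed here. The cytoplasmic actin Actb, most abundant of the 2 actin paralogs tested, had 195 and 168 CPM in sham and 417 and 269 CPM in intra-S livers, and did not pass (adjusted p = 0.0885). Without an intra-S liver, 1 of the 2 paralogs was higher in intra-C livers, and in intra-S livers 1 without replicate 1 and 2 without replicate 2.

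Of 20 genes of the activated myofibroblast matrix, 2 (Col5a2 and Fn1) rose in intra-C and 11 in intra-S livers and none fell, with a median log2 fold change of 0.92 and 1.74. The difference from the contractile genes was not tested. The matrix calls without intra-S replicate 1 were 11 in intra-C and 14 in intra-S livers, and without replicate 2 they were 10 and 13, all higher. The contractile genes then gave 2 higher of 10 in intra-C livers in both fits, and in intra-S livers 2 higher and 1 lower without replicate 1 and 0 without replicate 2. These genes are also made by other cells, Fn1 by hepatocytes and Vim and S100a6 by leukocytes and tumor cells. Lox, a collagen cross-linking enzyme, was highest in intra-S replicate 1 (12.7 CPM against 0.785 CPM in replicate 2), and it passed with and without that liver (edgeR adjusted p = 0.0352 and 0.0495). Loxl2, of the same family, was at 25.3 CPM in replicate 1 and 7.63 CPM in replicate 2, with a log2 fold change against sham of 3.16, and 2.05 without replicate 1 (adjusted p = 0.0249 and 0.00607), whereas S100a6 and Timp1 were highest in replicate 2 (27.3 against 8.80 CPM, and 5.57 against 1.02 CPM). Portal fibroblast and mesothelial genes, the other mesenchymal cells of the liver, gave 1 call of 9 (Pi16, higher in both tumor groups) and 0 of 6, and the former 2 in intra-S livers without replicate 1.

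For 7 of the 9 genes the log2 level spanned at least 1 over the 6 livers, and the genes with the nearest course were looked up by the root mean square difference of centred log2 CPM among 12679 genes. Cep83os (0.064) and Pcnx4 (0.095) lay nearest to Lrat, Hip1 (0.13) and Dab1 (0.15) to Hgf, and Incenp and Pim1 (0.10 in both) to Rgs5. Sh3bp4 (0.075) and Tulp3 (0.11) lay nearest to Pdgfra, Sp100 (0.11) and Sh3bgrl3 (0.12) to Pdgfrb, and Prmt2 (0.11) and Pfn2 (0.12) to Des. The nearest genes to Acta2, Calr3 (0.45) and Ankrd6 (0.46), lay far off. Over 6 livers such likeness is a description, and all values share the same libraries. Pcnx4 shows it, with 4.73 and 4.53 CPM in sham, 2.495 and 3.09 CPM in intra-C, and 5.92 and 5.44 CPM in intra-S livers, the same order of groups as Lrat.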

How the data were processed

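The authors aligned the reads of the 6 livers to mm10 with HISAT2 2.1.0 and assigned unique exon reads with featureCounts (Subread 2.0.6), and they deposited raw counts per gene and TPM values, which they calculated from the counts (tools per the labels). The annotation and the use of strand are not given in the sources used here. Labels gave the groups, and all columns were mapped by name.

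The 9 genes and all gene lists were chosen with earlier results of these data known. Counts were tested with edgeR 4.0.16's quasi-likelihood test (TMM, filterByExpr at a count minimum of 10, 1 fit over the 6 livers, Benjamini-Hochberg adjustment over 16370 genes). CPM values used TMM library sizes. With 2 livers in a group, no permutation of labels could reach 0.05, so none was used. Some genes of the lists are not reported here and were left out of the counts. Each list was read by its counts of calls and its median. Named from a list were up to 4 called genes with the largest change and a mean of at least 1 CPM, otherwise its most abundant gene by TPM, and those named beyond that were chosen after their values were seen. Likeness used a prior count of 2 and genes whose mean reached 1 CPM. Promoters, loci and exon overlap came from RefSeq and GENCODE tables of GRCm38.p6, in which all 20140 symbols matched.

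The 16 alternatives were a test with DESeq2 1.42.0, edgeR with its size factors, 2 other filters (none, or a minimum of 10 counts in each of the livers), a fit restricted to the pair of groups, a block for the replicate number, scaling by plain library size or by TMM after removal of the 100 genes with most counts, limma 3.58.1 on log2(TPM + 1) or log2(TPM + 0.1), and 6 fits that each left out 1 liver. R 4.3.3, Python 3.11.15 and matplotlib 3.10.9 were used.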

Additional observations from a re-analysis of the deposited data

Results flagged for a closer look

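Lrat was marked because its tumor groups moved in opposite directions: in CPM with TMM library sizes, both intra-C livers lay below and both intra-S livers above the 2 sham livers, and the groups differed by 1.02 on the log2 scale. The direct edgeR test of that difference gave an adjusted p of 0.285 (SE 0.20, unadjusted p = 0.00201), so it did not pass over all genes, and over 16 other settings the adjusted p ran from 0.0115 to 0.76. Both tumor groups were set against the same sham livers. The side of intra-S depended on the scale: its value against sham was 0.30 with TMM, 0.027 with plain library size and 0.0020 and 0.0022 on the log2 TPM scales, and on the TPM scale the intra-S and sham livers overlapped.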

How the results depend on the processing

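Of 16 settings, Hgf passed in 12 in intra-C and in 13 in intra-S livers, Pdgfra in 9 and Rgs5 in 7 in intra-S livers, each with its sign kept in all. Of the 9 genes those called in intra-C livers were 1, and 3 with DESeq2, 2 with at least 10 counts in every liver and 4 with only the 2 groups compared, and 0 to 4 when a liver was left out. In intra-S livers they were 3, and 0 with only the 2 groups compared and 0 to 4 when a liver was left out. Between intra-S and intra-C they were 0, and 1 with DESeq2 and 0 to 4 when a liver was left out. Over all genes the calls were 1195, 1756 and 0. DESeq2 gave 2711, 3400 and 506, only the 2 groups compared 4771 and 392, and leaving out a liver 0 to 4658, 0 to 5693 and 0 to 2884. Calls higher and lower were 806 and 389 in intra-C and 1110 and 646 in intra-S livers, and with library size without TMM, which moved the median of all genes to -0.25 and -0.23, they were 569 and 801, and 838 and 1115. With limma on log2(TPM + 1), 497 and 896 were called in intra-C and 685 and 1553 in intra-S livers. Turned signs, none of them called, were Reln in intra-C livers at -0.13 with library size and -0.051 and -0.056 on the TPM scales, and Des there at -0.022 with library size. Over the fits with a liver left out, Reln ran from -0.017 to 0.30 and Des from -0.020 to 0.50 in intra-C livers, Des from -0.16 to 1.20 and Acta2 from -0.85 to 2.82 in intra-S livers, and between intra-S and intra-C Acta2 ran from -2.02 to 0.63, Des from -0.41 to 0.94 and Ecm1 from -0.49 to 0.091. With the replicate block 1, 2 and 0 of the 9 genes were called, Rgs5 being the one lost; same-numbered livers deviated together by r = -0.032, 0.083 and 0.043 between the 3 pairs of groups, so the numbers were not read as pairs.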
